A study of Mus musculus with 3 samples.

Results

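The genes described here are 9 members of the TGF-beta, PDGF, IGF and activin systems: the ligands Tgfb1, Pdgfa, Pdgfb, Pdgfc, Igf1 and Inhba, the receptors Tgfbr1 and Tgfbr2, and the matrix protein Tgfbi. They were taken by symbol from a list, and 9 of the 9 were found among the 32285 genes of the files. Their transcripts were counted as unique molecular identifiers (UMIs, molecules tagged before amplification) in cells enriched for the leukocyte surface protein CD45 from the infrarenal aorta of wild-type mice. AAA_14 is the library of aortas treated with elastase, an enzyme that breaks down elastic fibres. AAA_7 is titled as an aneurysm library but its treatment label names phosphate-buffered saline (PBS), so its treatment is in doubt and only its title is used for it below. Sham is the library of PBS-treated aortas. The labels give no unit for 7 and 14. All aortas of a group were pooled before loading, 20 for aneurysm and 50 for control, and there was 1 library per group. No test between groups was possible, and every interval below is an exact 95% interval that covers counting error only.

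TGF-beta 1 is secreted in a latent complex and, once released, binds the type II receptor, which recruits and activates the type I receptor so that SMAD proteins enter the nucleus. Activin A, a dimer of the chain encoded by Inhba, is a relative of TGF-beta that signals to SMADs through its own receptors. PDGF chains act on PDGF receptors of mesenchymal cells such as smooth muscle cells and fibroblasts, and IGF-1 acts on the IGF-1 receptor and is made by liver, by mesenchymal cells and by tissue macrophages. In the artery wall these systems are known for their part in smooth muscle growth, matrix production and repair.

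Kept were 5286 cells of AAA_14, 3229 of AAA_7 and 1235 of Sham, those with no fewer than 200 genes detected and a mitochondrial share of UMIs up to 10%. The filters removed 47.7% of AAA_14 barcodes, 7.64% of AAA_7 barcodes and 67.4% of Sham barcodes. The median depth was 6967.5 UMIs per kept cell in AAA_14, 2581 in AAA_7 and 3659 in Sham. Kept barcodes shared between libraries numbered 8 for AAA_14 with AAA_7, 3 for AAA_14 with Sham and 1 for AAA_7 with Sham. Cells were clustered without the 9 members and the related pathway genes, and clusters were named from marker UMIs. Macrophage-like and monocyte-like clusters, called phagocytes here, held 1171 cells in AAA_14, 1026 in AAA_7 and 11 in Sham, so that phagocytes could be compared between AAA_14 and AAA_7 and not with Sham. Neutrophil-like, T cell-like, NK cell-like and B cell-like clusters held at least 90 cells in every library, and dendritic cell-like clusters held 446 cells in AAA_14, 212 in AAA_7 and 44 in Sham. Although the cells were enriched for CD45, fibroblast-like cells (57 in AAA_14, 14 in AAA_7 and 3 in Sham), smooth muscle-like cells (27, 2 and 0 in the same order of libraries) and endothelial-like cells (26, 8 and 0) were present. A cluster with markers of T and B cells stayed unnamed, with 69 cells in AAA_14, 10 in AAA_7 and 85 in Sham.

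The members fell into those found in nearly every class and those held by a few cell types. Phagocytes, which were 22.2% of kept cells in AAA_14 and 31.8% in AAA_7, held 75.9% of all Tgfbi UMIs in AAA_14 and 84.2% in AAA_7. They held 81.3% of Pdgfc UMIs in AAA_14 and 95.98% in AAA_7, and 68.7% of Igf1 UMIs in AAA_14 and 82.2% in AAA_7. For Tgfb1, a ligand of nearly all leukocytes, the phagocyte share was 41.2% in AAA_14 and 54.5% in AAA_7, and the rest was spread over B cells, T cells, dendritic cells and neutrophils. In Sham, where 0.891% of kept cells were phagocytes, Tgfb1 UMIs lay mainly in B cells (30.9%) and T cells (30.7%), and 93.4% of the 61 Igf1 UMIs lay in 3 fibroblast-like cells. Pdgfc had 0 UMIs in Sham, which allows up to 0.501 CPM (the UMIs of a gene divided by the summed UMIs of the same cells and scaled to 1000000) at a floor of 3 counts. Over all kept cells Inhba reached 8.18 CPM in AAA_14, 37.4 CPM in AAA_7 and 3.68 CPM in Sham. In sums over all cells, more cells of a type and more RNA per cell cannot be told apart, and the values by class below are the ones compared.

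**Figure D1:**
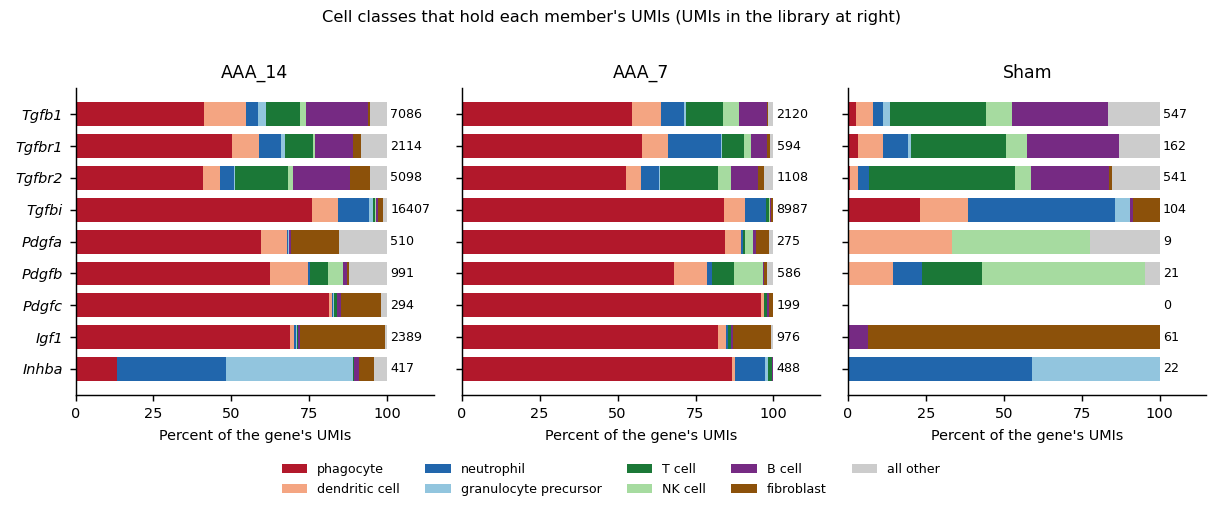
Percent of each member's UMIs (horizontal axis) that lay in each cell class, in AAA_14, AAA_7 and Sham from left to right; the number at the right of a bar is the gene's UMI count in that library. Phagocytes hold most Tgfbi, Pdgfc and Igf1 UMIs in AAA_14 and AAA_7, Inhba lies mainly in neutrophils and their precursors in AAA_14 and in phagocytes in AAA_7, and in Sham most Igf1 UMIs lie in fibroblast-like cells.

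Igf1, the ligand of the IGF-1 receptor (chr10:87858265-87937042, GRCm38), and Pdgfc, a PDGF chain that must be cut by proteases before it acts (chr3:81036416-81214040), were the members most alike in their distribution over cells. Across the 29 clusters with at least 30 cells, all libraries summed, the Pearson correlation of their log2(CPM + 10) was 0.89. This is a description over clusters that share libraries and depth. In a phagocyte cluster led by Ccl8, Mrc1 and Folr2 (cluster 3), genes of tissue macrophages, Igf1 had 225.7 CPM (213 to 239) in AAA_14 and 277 CPM (253 to 302) in AAA_7. In a smaller one led by Retnla, Lyve1 and Cd163 (cluster 17) it had 309 CPM (274 to 348) in AAA_14 and 447 CPM (374 to 529.7) in AAA_7. Cluster 17 thus had the highest Igf1 level among phagocyte clusters with at least 20 cells in each of these libraries, and its interval did not overlap that of cluster 3 in either. In a cluster led by Mmp12, Gpnmb and Spp1 (cluster 4) Igf1 was lower, with 91.4 CPM (74.7 to 111) in AAA_14 and 57.3 CPM (48.8 to 66.8) in AAA_7, and 1 cell held 41.9% of these UMIs in AAA_14 and 30.1% in AAA_7. In a cluster led by Fcgr1, Ms4a4c and Cx3cr1 (cluster 5), genes of monocytes and their recent progeny, Igf1 had 11.5 CPM in AAA_14 and 6.01 CPM in AAA_7. The highest level of all clusters with at least 20 cells was in the fibroblast-like cluster of AAA_14, with 616 CPM (570 to 665).

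Among phagocytes, Pdgfc lay mainly in the same macrophage clusters. It had 69.4 CPM (53.2 to 89.0) in AAA_14 and 142 CPM (102 to 192) in AAA_7 in cluster 17, and 31.97 CPM (27.3 to 37.2) in AAA_14 and 69.7 CPM (58.0 to 82.97) in AAA_7 in cluster 3. Clusters 4 and 5 had 0.870 and 1.21 CPM in AAA_14 and 4.57 and 15.02 CPM in AAA_7. Outside phagocytes, the fibroblast-like cells had 35.8 CPM of Pdgfc (25.4 to 49.2) from 38 UMIs in AAA_14, near the level of cluster 3, and 12.1 CPM from 3 UMIs in AAA_7. Within clusters 3 and 17 the AAA_14 level was below the AAA_7 level, by a log2 ratio of −1.13 (−1.47 to −0.78) and −1.04 (−1.62 to −0.43). Igf1 was lower in AAA_14 in the same clusters by less, with log2 ratios of −0.30 (−0.45 to −0.14) in cluster 3 and −0.53 (−0.84 to −0.22) in cluster 17. At least 1 Igf1 UMI was found in 40.9% of phagocytes in AAA_14 and 26.5% in AAA_7, against 0.789% and 1.10% of B cells in these libraries, a class that should lack Igf1. Median depths were 10107 UMIs in AAA_14 phagocytes and 4718 in AAA_7 phagocytes, and 4405 and 1823 in the B cells. With each cell thinned to 1000 UMIs, the Igf1 shares were 11.9% of AAA_14 phagocytes and 10.8% of AAA_7 phagocytes, and 0.161% and 0.696% of B cells.

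The promoters of Igf1 and Pdgfc are shown because these members were highest in the same phagocyte clusters, and that of Inhba because it was highest in another one. Each runs from 250 bases before to 50 bases after the start of transcription in RefSeq (GRCm38.p6), 5′ to 3′ on the gene's strand, and 8 of the 9 members had an entry in that table. Capitals mark matches, on either strand, to an AP-1 site (TGANTCA), a SMAD box (CAGAC), a PU.1 core (GAGGAA) or a TATA box (TATAAA), which do not overlap one another in these windows.
Igf1 (chr10:87860861-87861160, + strand): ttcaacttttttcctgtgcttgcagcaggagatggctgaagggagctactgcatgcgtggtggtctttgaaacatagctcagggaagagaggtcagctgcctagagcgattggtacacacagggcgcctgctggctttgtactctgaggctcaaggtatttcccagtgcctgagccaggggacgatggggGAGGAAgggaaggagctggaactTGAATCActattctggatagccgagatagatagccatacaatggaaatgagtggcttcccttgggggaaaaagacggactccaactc
Pdgfc (chr3:81036166-81036465, + strand): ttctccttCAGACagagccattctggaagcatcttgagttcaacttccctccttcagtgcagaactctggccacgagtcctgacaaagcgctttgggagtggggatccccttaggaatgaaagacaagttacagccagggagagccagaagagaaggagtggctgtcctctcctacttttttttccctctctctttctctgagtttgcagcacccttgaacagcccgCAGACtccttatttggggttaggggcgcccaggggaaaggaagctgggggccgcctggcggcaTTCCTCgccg
Inhba (chr13:16011601-16011900, + strand): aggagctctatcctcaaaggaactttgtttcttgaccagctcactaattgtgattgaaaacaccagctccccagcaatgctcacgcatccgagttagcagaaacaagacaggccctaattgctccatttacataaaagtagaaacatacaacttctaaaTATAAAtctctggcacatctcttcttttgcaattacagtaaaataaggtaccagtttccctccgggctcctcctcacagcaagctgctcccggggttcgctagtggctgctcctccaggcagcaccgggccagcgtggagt
The Igf1 window holds 1 AP-1 match and 1 PU.1 core, the Pdgfc window 2 SMAD boxes and 1 PU.1 core, and the Inhba window 1 TATA box. Of 32851 promoters in the table, 7.81% hold the AP-1 letters, 49.6% the SMAD box, 28.3% the PU.1 core and 13.6% the TATA box. PU.1 is a transcription factor of myeloid cells, and a match of letters is a description of the window only.

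**Figure D2:**
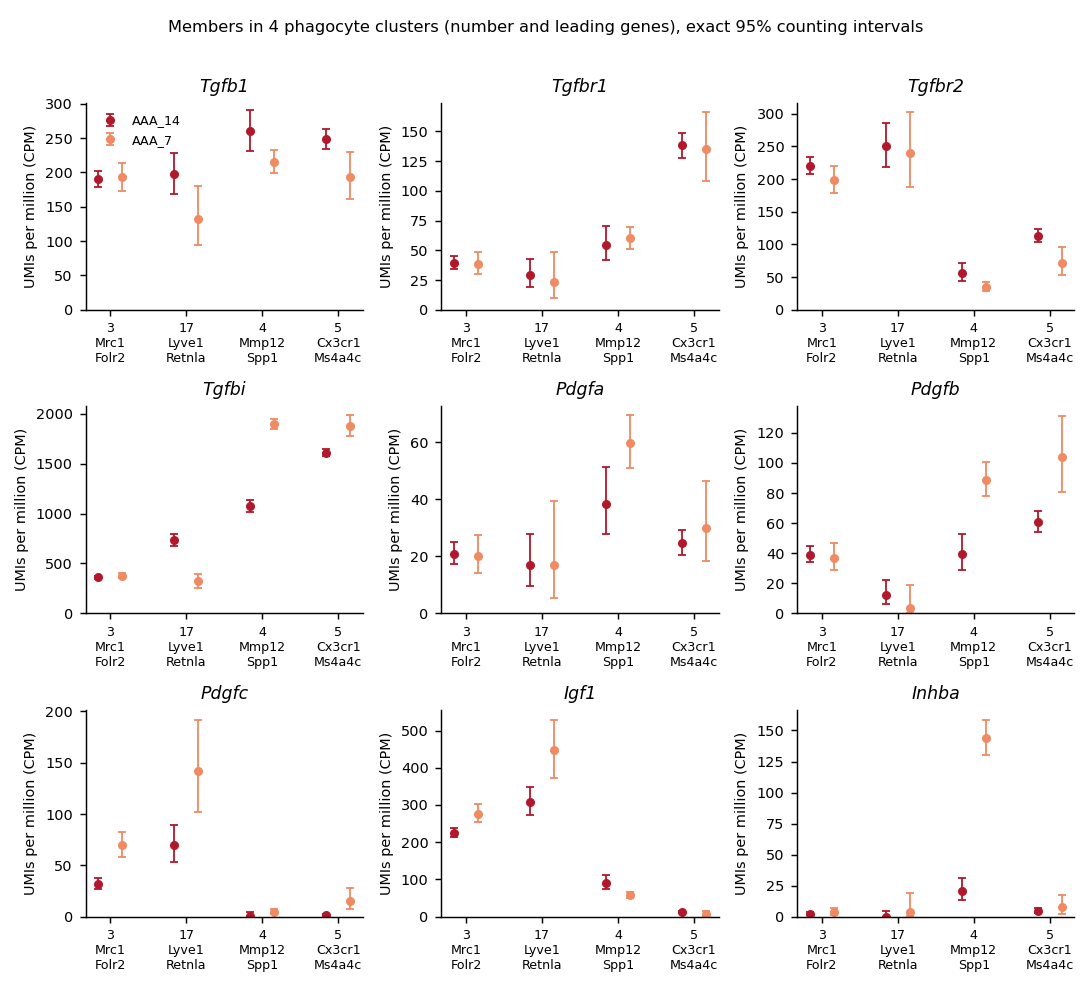
CPM (vertical axis, from 0, with its own scale in each panel) of the 9 members in 4 phagocyte clusters, AAA_14 left of AAA_7; points are sums over the cells of 1 library and bars are exact 95% counting intervals. Igf1, Pdgfc and Tgfbr2 are highest in clusters 3 and 17, Tgfbr1 in cluster 5, Tgfbi in clusters 4 and 5, and Inhba stands out in cluster 4 of AAA_7 at 144 CPM.

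Inhba, which encodes the activin A chain (chr13:16011851-16031621), had most of its UMIs in different cell classes in AAA_14 and AAA_7. In phagocytes it had 56 UMIs and 4.31 CPM in AAA_14, against 423 UMIs and 73.8 CPM in AAA_7. Of the 423 AAA_7 phagocyte UMIs, 410 lay in the Mmp12, Gpnmb and Spp1 cluster, where Inhba had 20.9 CPM (13.4 to 31.1) in AAA_14 and 144 CPM (131 to 159) in AAA_7. That cluster held 86 cells in AAA_14 and 556 in AAA_7, so the sum over all phagocytes carries a difference in cell numbers as well as the difference within the cluster. Inhba UMIs were in few of its cells, 4.65% in AAA_14 and 12.1% in AAA_7, and 1 cell held 70.8% of them in AAA_14 and 22.9% in AAA_7. Thinned to 1000 UMIs, the shares of cells were 1.25% in AAA_14 and 6.37% in AAA_7. In AAA_14, 40.5% of Inhba UMIs lay in granulocyte precursor-like cells, with 109 CPM (93.4 to 127) and a UMI in 64.5% of the 76 cells, and 35.0% lay in neutrophils. AAA_7 held 8 precursor-like cells with 5 Inhba UMIs, so these shares carry a difference in cell numbers too. In Sham, 59.1% of the 22 Inhba UMIs lay in neutrophils and 40.9% in its 19 precursor-like cells. Over all neutrophils the levels were 35.4 CPM (29.9 to 41.7) in AAA_14, 32.7 CPM (24.0 to 43.5) in AAA_7 and 32.4 CPM (17.3 to 55.4) in Sham, with overlapping intervals. Within the neutrophil cluster led by Ly6g, Mmp8 and Ltf (cluster 10), genes of late granule-bearing neutrophils, Inhba had 40.7 CPM (32.3 to 50.7) in AAA_14 and 45.8 CPM (24.4 to 78.4) in Sham. In the cluster led by Acod1 and Csf1 (cluster 2) it had 70.5 CPM (54.0 to 90.3) in AAA_14 and 33.8 CPM (24.6 to 45.2) in AAA_7, and 1 cell held 27.4% of the AAA_14 UMIs.

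Pdgfb (chr15:79995874-80014977) and Pdgfa (chr5:138976014-138997370), the chains of the classical PDGF dimers, lay in more classes. The highest Pdgfb level was in the endothelial-like cells of AAA_14, with 343 CPM (279 to 417), and the highest Pdgfa level was in its smooth muscle-like cells, with 226 CPM (174 to 288). Fibroblast-like cells of AAA_14 had 73.6 CPM of Pdgfa (58.2 to 91.8). Of the 4 large phagocyte clusters (3, 4, 5 and 17), cluster 5 had the highest Pdgfb level, with 60.5 CPM (53.9 to 67.8) in AAA_14 and 104 CPM (80.7 to 131) in AAA_7. A small phagocyte cluster (cluster 30), with 19 cells in AAA_14 and 7 in AAA_7, had 114.8 CPM (85.7 to 150.5) in AAA_14 and 82.7 CPM from 8 UMIs in AAA_7. In cluster 4 Pdgfb had 39.2 CPM (28.6 to 52.4) in AAA_14 and 89.0 CPM (78.3 to 100.6) in AAA_7, an interval that overlaps that of cluster 5 in AAA_7 and not in AAA_14. In cluster 3 the levels of Pdgfb did not separate, at 39.1 CPM (33.9 to 44.8) in AAA_14 and 37.1 CPM (28.7 to 47.1) in AAA_7. Pdgfa reached 38.3 CPM (27.8 to 51.4) in AAA_14 and 59.8 CPM (51.1 to 69.5) in AAA_7 in cluster 4, and 1 cell held 40.9% of the AAA_14 UMIs. The plasmacytoid dendritic-like cells, a type known for interferon production, had a similar Pdgfa level, with 37.8 CPM (24.4 to 55.8) in AAA_14 and 23.1 CPM from 3 UMIs in AAA_7.

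Tgfb1 (chr7:25687002-25705077) had at least 10 UMIs in each of the 6 compared classes of AAA_14 and AAA_7. In phagocytes it had 225 CPM in AAA_14 and 202 CPM in AAA_7, and in the 11 Sham phagocytes 195 CPM (107 to 328), an interval that covers the other two. In dendritic cells it had 142 CPM in AAA_14, 140 CPM in AAA_7 and 93.7 CPM (63.2 to 134) in Sham. The highest level was in the phagocyte cluster led by Ear2, Ace and Treml4, genes of patrolling monocytes, with 404 CPM (336 to 482) in its 45 AAA_14 cells. The lowest among classes with at least 50 cells was in AAA_14 plasma cell-like cells, with 21.6 CPM.

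The receptors had different peaks. Tgfbr1, the type I receptor (chr4:47353222-47414931), was highest in cluster 5 among clusters with at least 20 cells, with 138 CPM (128 to 149) in AAA_14 and 135 CPM (109 to 166) in AAA_7, and next in plasmacytoid dendritic-like cells, with 121 CPM (95.8 to 150) in AAA_14 and 116 CPM (64.8 to 191) in AAA_7. The small cluster 30 had 121 CPM (91.5 to 158) in AAA_14. These intervals overlap. Tgfbr2, the type II receptor (chr9:116084293-116175360), was highest in fibroblast-like cells of AAA_14, with 317 CPM (284 to 353), followed by cluster 17 with 251 CPM (219 to 286) in AAA_14 and 240 CPM (188 to 303) in AAA_7, and cluster 3 with 221 CPM (208 to 234) in AAA_14 and 199 CPM (179 to 220) in AAA_7. Cluster 4 had the lowest Tgfbr2 level of the 4 large phagocyte clusters, with 56.6 CPM (43.7 to 72.1) in AAA_14 and 35.2 CPM (28.6 to 42.8) in AAA_7. Of the 4 large phagocyte clusters, the pair with the highest Igf1 and Pdgfc levels thus also had the highest Tgfbr2 levels.

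Tgfbi, a secreted protein that binds collagens and integrins and was named for its induction by TGF-beta (chr13:56609523-56639562), had the largest UMI sum of the members in AAA_14, with 16407, and in AAA_7, with 8987, and had 104 UMIs in Sham. In cluster 5 it had 1611 CPM (1576 to 1647) in AAA_14 and 1883 CPM (1780 to 1990) in AAA_7, and in cluster 4 it had 1079 CPM (1020 to 1141) in AAA_14 and 1901 CPM (1850 to 1952) in AAA_7. It was lower in the macrophage cluster 3, with 361 CPM (345 to 378) in AAA_14 and 376 CPM (348 to 405) in AAA_7. Tgfbi is among the genes that lead cluster 5, although the clusters were built without it. Cluster 17 stood apart in direction, with 734 CPM (679 to 793) in AAA_14 and 318 CPM (257 to 389) in AAA_7, a log2 ratio of 1.20 (0.89 to 1.53).

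Over phagocytes summed as a class, Inhba was the member past 2-fold between AAA_14 and AAA_7. Pdgfc was past 2-fold under some alternatives, in part from few UMIs. Of the 9 members tested (at least 10 UMIs in both libraries together), 0 were past 2-fold higher in AAA_14 and 1 was past 2-fold lower, against 7.78% higher and 3.91% lower of all 12516 genes tested. The median log2 ratio was −0.46 over the members and 0.11 over all genes. The log2 ratio of Inhba was −4.09 (−4.53 to −3.69). It was −1.91 when the clusters 3, 4, 5 and 17 were weighted equally, an alternative chosen after seeing the data, −4.24 without the top cell of each library, and −5.96 when each cell was classed by its own markers. In cluster 17 Inhba had 0 UMIs in AAA_14 and 1 in AAA_7, under the minimum of 10. Its ratio there, which enters the equal weighting, thus rests on the 0.5 counts added. The PDGF chains were lower in AAA_14 by less than 2-fold, with −0.86 (−1.14 to −0.57) for Pdgfc, −0.80 (−1.05 to −0.54) for Pdgfa and −0.55 (−0.73 to −0.36) for Pdgfb. With the clusters weighted equally these became −1.91 for Pdgfc, past 2-fold, −0.25 for Pdgfa and −0.14 for Pdgfb. The Pdgfc value rests in part on few UMIs. Cluster 4 had 1 in AAA_14 and 13 in AAA_7 (−1.86, −7.80 to 0.34), and cluster 5 had 6 and 10 (−3.59, −5.38 to −2.04). Clusters 3 and 17 had −1.13 and −1.04. Pdgfb had −1.17 (−1.67 to −0.72) in cluster 4, −0.78 (−1.16 to −0.38) in cluster 5 and 0.07 (−0.33 to 0.50) in cluster 3. In cluster 17 its ratio of 1.34 (−0.92 to 7.29) came from 11 and 1 UMIs. Pdgfc was also past 2-fold at a mitochondrial limit of 5% (−1.09), as was Pdgfb with thinned cells (−1.19). At the same limit Pdgfa was −0.65 and Pdgfb −0.30, and with thinned cells Pdgfa was −0.29 and Pdgfc −0.91. Tgfbi, with 959 CPM in AAA_14 and 1320 CPM in AAA_7, had −0.46 (−0.50 to −0.42), and 0.02 when the clusters were weighted equally. Igf1 differed little, with 126 CPM in AAA_14 and 140 CPM in AAA_7, a log2 ratio of −0.15 (−0.27 to −0.02) that was 0.15 with clusters weighted equally and 0.05 with thinned cells. Tgfb1 (0.16, 0.06 to 0.26), Tgfbr1 (0.44, 0.27 to 0.62) and Tgfbr2 (0.66, 0.53 to 0.80) were higher in AAA_14, with 0.29, 0.03 and 0.38 when the clusters were weighted equally. Relative to the median gene they stood at 0.05, 0.33 and 0.55, so that Tgfb1 was then near that gene. For Tgfbr1 the ratio within clusters 3, 4 and 5 was 0.01, −0.13 and 0.02, with intervals that include 0, and cluster 5, its highest, held 417 phagocytes of AAA_14 and 114 of AAA_7.

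The libraries differed in more than the members. The median share of mitochondrial UMIs in kept phagocytes was 5.19% in AAA_14 and 1.06% in AAA_7, and their part in these ratios was not tested. Markers of fibroblasts were low in phagocytes, with the 6 markers summing to 50.9 CPM in AAA_14 and 31.7 CPM in AAA_7. Those of endothelial cells summed to 28.4 CPM in AAA_14 and 24.2 CPM in AAA_7, and those of platelets, cells known to carry PDGF and TGF-beta 1, to 3.08 CPM in AAA_14 and 5.23 CPM in AAA_7. None of these markers but Gp1bb, at 0 in AAA_14, was at 0 in either library. Other lists differed more. The 4 haemoglobin genes, markers of red cells, summed to 911 CPM in AAA_14 and 4.53 CPM in AAA_7, and the 6 B cell markers to 228 CPM in AAA_14 and 80.4 CPM in AAA_7. The 8 neutrophil markers summed to 2547 CPM in AAA_14 and 1429 CPM in AAA_7. Markers of mast cells or basophils summed to 1.92 CPM in AAA_14, with Ms4a2 at 0, and 97.5 CPM in AAA_7, and those of NK cells to 3.08 CPM in AAA_14 and 34.2 CPM in AAA_7. The part of these cell types in the result was not tested.

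**Figure D3:**
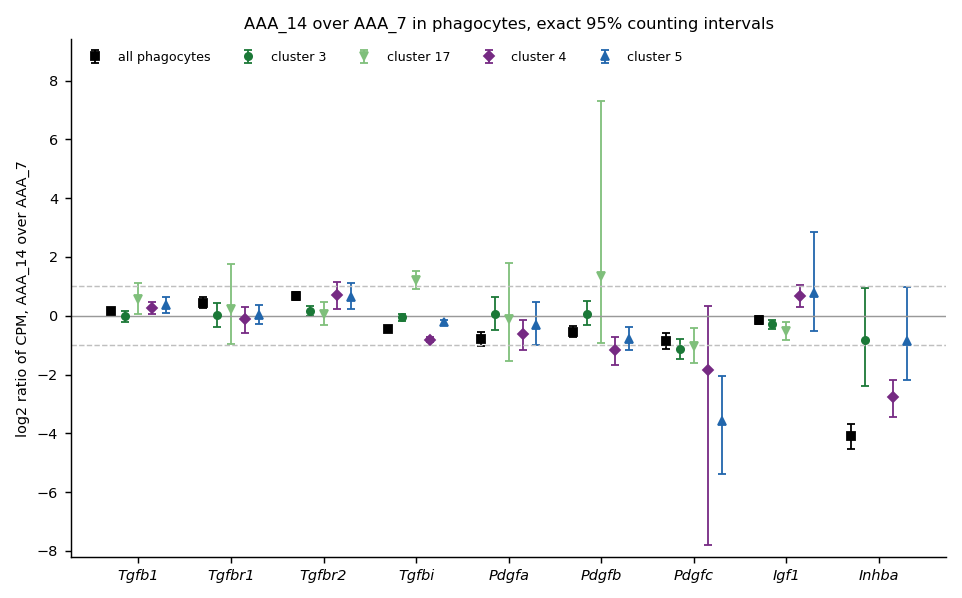
Log2 ratio of CPM, AAA_14 over AAA_7 (vertical axis), for each member over all phagocytes and within 4 phagocyte clusters, where at least 10 UMIs were counted; bars are exact 95% counting intervals and dashed lines mark 2-fold. Inhba lies at −4.09 over all phagocytes and −2.76 in cluster 4, and Tgfbi is above 0 in cluster 17 and below it in clusters 4 and 5. Pdgfc is below 0 in each cluster shown, but in cluster 4 it rests on 1 and 13 UMIs and its interval includes 0.

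Neutrophils, which every library held (788 cells in AAA_14, 710 in AAA_7 and 97 in Sham), had more Tgfbi in AAA_14 and AAA_7 than in Sham. Tgfbi had 395 CPM (376 to 415) in AAA_14, 418 CPM (385 to 452) in AAA_7 and 122 CPM (90.4 to 162) in Sham. The log2 ratio to Sham was 1.68 (1.28 to 2.13) for AAA_14 and 1.76 (1.35 to 2.22) for AAA_7. For AAA_14 the difference was present within clusters. In the cluster led by Csf3r and Cxcr2 (cluster 8), genes of mature neutrophils, AAA_14 had 782 CPM and Sham 249 CPM. In the Ly6g, Mmp8 and Ltf cluster AAA_14 had 244 CPM and Sham 81.1 CPM. AAA_7 held 6 and 18 cells in these clusters, too few to compare there. Of the 6 members tested in AAA_14 against Sham, Tgfbi was the 1 past 2-fold higher and 0 were past 2-fold lower, where 12.4% of 9348 genes were higher and 6.38% lower. In AAA_7 against Sham, 3 of 6 were past 2-fold higher and 0 lower, with 22.8% of 7125 genes higher and 12% lower. These were Tgfbi, Tgfb1 with 107 CPM in AAA_7 and 42.4 CPM in Sham (1.30, 0.61 to 2.16), and Tgfbr1 with 71.0 CPM in AAA_7 and 32.4 CPM in Sham (1.08, 0.29 to 2.09). Relative to the median gene of this comparison they stood at 1.49, 1.03 and 0.81, so that Tgfbr1 was then inside 2-fold.

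AAA_14 neutrophils had 68.4 CPM of Tgfb1 and 36.9 CPM of Tgfbr1, between the other libraries. Different clusters made up the class: 686 of the 710 AAA_7 neutrophils lay in the Acod1 and Csf1 cluster, which held 209 cells of AAA_14 and 3 of Sham. Within that cluster Tgfb1 had 113 CPM (91.5 to 137) in AAA_14 and 113 CPM (95.3 to 132) in AAA_7, and Tgfbr1 had 70.5 CPM in AAA_14 and 73.6 CPM in AAA_7. Between AAA_14 and AAA_7 neutrophils 1 of 7 members was past 2-fold lower, Pdgfb with 6 UMIs in AAA_14 and 9 in AAA_7 (−2.07, −3.88 to −0.45), and 0 were higher, where 10.8% of 9821 genes were lower and 14.4% higher. The median mitochondrial share of neutrophils was 5.25% in AAA_14, 0.455% in AAA_7 and 1.01% in Sham, and its part was not tested. Igf1 had 19 UMIs in AAA_14 neutrophils, 9 in AAA_7 and 0 in Sham, where the floor of 3 counts is above these levels, so no fold is given.

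**Figure D4:**
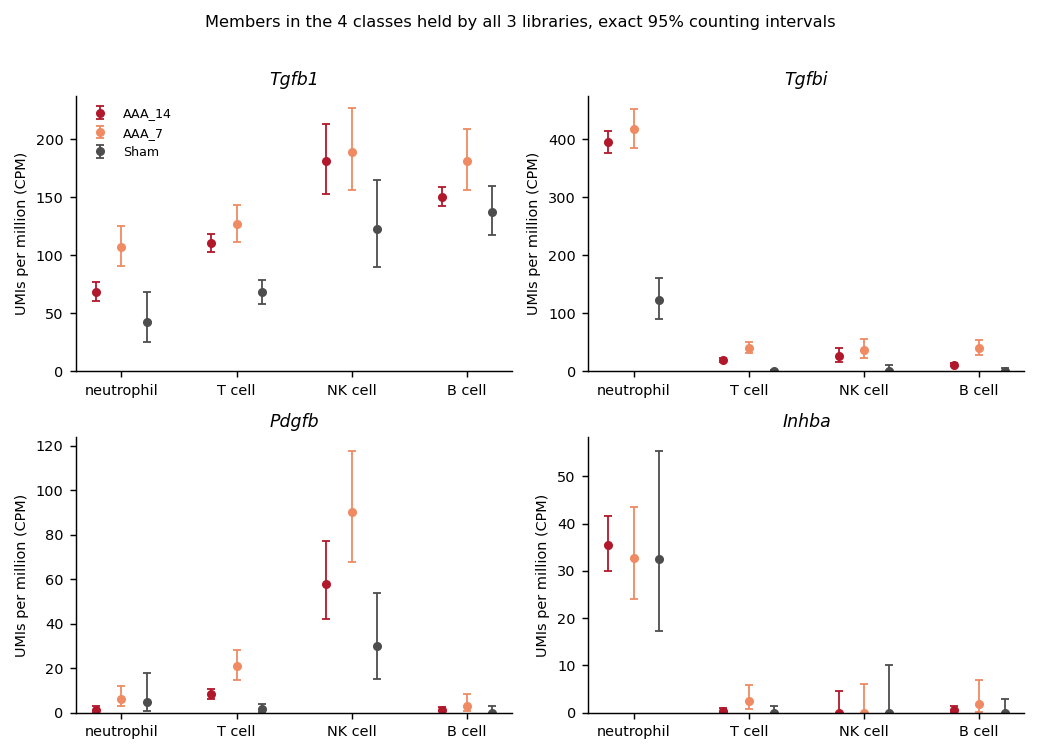
CPM (vertical axis, from 0, own scale per panel) of Tgfb1, Tgfbi, Pdgfb and Inhba in neutrophils, T cells, NK cells and B cells of AAA_14, AAA_7 and Sham, from left to right within a class, with exact 95% counting intervals. Sham has the lowest Tgfb1 level in each class and a Tgfbi level of 122 CPM in neutrophils, below the other libraries, and Inhba levels overlap in neutrophils.

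In T cells, Tgfb1 and Pdgfb were higher in AAA_14 and in AAA_7 than in Sham. Tgfb1 had 111 CPM (103 to 119) in AAA_14, 126 CPM (111 to 143) in AAA_7 and 67.9 CPM (58.0 to 79.0) in Sham, with log2 ratios to Sham of 0.70 (0.46 to 0.95) and 0.90 (0.61 to 1.19). Pdgfb had 8.35 CPM from 59 UMIs in AAA_14, 20.8 CPM from 41 UMIs in AAA_7 and 1.62 CPM from 4 UMIs in Sham, with log2 ratios to Sham of 2.21 (0.94 to 4.29) and 3.54 (2.22 to 5.63). Ratios to Sham in T cells were shifted for all genes, whose median was 0.48 for AAA_14 and 0.49 for AAA_7 on the log2 scale, and relative to the median gene Tgfb1 stood at 0.22 and 0.41 and Pdgfb at 1.73 and 3.05. The T cell clusters that make up the class differed. A cluster led by Lef1 and Dapl1, genes of naive T cells, held 444 of the 935 AAA_14 T cells, 207 of the 563 AAA_7 T cells and 325 of the 437 Sham T cells. In it, Tgfb1 had 71.4 CPM in AAA_14, 71.2 CPM in AAA_7 and 57.9 CPM in Sham. In a cluster with Foxp3 and Ctla4, genes of regulatory T cells, Tgfb1 had 141 CPM (124 to 159) in AAA_14, 165 CPM (130 to 207) in AAA_7 and 140 CPM (96.4 to 197) in Sham, with overlapping intervals. In a cluster led by Ccl5 and Nkg7, genes of cytotoxic cells, it had 103 CPM in AAA_14 and 121 CPM in AAA_7 against 24.2 CPM from 6 UMIs in Sham, a log2 ratio of 1.98 (0.89 to 3.58) for AAA_14 and 2.22 (1.09 to 3.84) for AAA_7. Pdgfb in this cluster had 17.4 CPM in AAA_14, 53.0 CPM in AAA_7 and 12.1 CPM from 3 UMIs in Sham.

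NK cells had the highest Pdgfb level of the lymphocyte classes, with 57.8 CPM (42.3 to 77.1) in AAA_14, 90.3 CPM (67.9 to 118) in AAA_7 and 30.1 CPM (15.01 to 53.8) in Sham. The log2 ratio to Sham was 0.89 (−0.03 to 2.04) for AAA_14 and 1.54 (0.64 to 2.67) for AAA_7. Tgfb1 in NK cells had 181 CPM (153 to 213) in AAA_14, 189 CPM (156 to 227) in AAA_7 and 123 CPM (89.7 to 165) in Sham. In B cells it had 150.4 CPM (143 to 159) in AAA_14, 181 CPM (156 to 209) in AAA_7 and 138 CPM (118 to 160) in Sham, and the AAA_14 interval overlapped that of Sham. Its log2 ratio to Sham was 0.12 as counted and −0.17 relative to the median gene. The B cell clusters differed: that led by Mef2b and Rgs13 held 206 cells of AAA_14, 8 of AAA_7 and 7 of Sham. In the largest, led by Ighd and Fcer2a (cluster 0), Tgfb1 had 180 CPM in AAA_14, 188 CPM in AAA_7 and 140 CPM in Sham. Its log2 ratios to Sham there were 0.36 (0.12 to 0.62) for AAA_14 and 0.43 (0.11 to 0.75) for AAA_7. Tgfbr2 separated little among libraries, with 124 CPM in AAA_14, 105 CPM in AAA_7 and 103 CPM in Sham in T cells, and 100.3 CPM in AAA_14, 91.4 CPM in AAA_7 and 110 CPM in Sham in B cells. Tgfbr1 in B cells had 27.8 CPM in AAA_14, 29.2 CPM in AAA_7 and 39.1 CPM in Sham, and the log2 ratio of AAA_14 to Sham was −0.51 (−0.94 to −0.02).

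Tgfbi was found in lymphocytes of AAA_14 and AAA_7 and hardly in those of Sham. T cells had 19.2 CPM in AAA_14, 40.1 CPM in AAA_7 and 0 UMIs in Sham, at least 15.9-fold and 33.1-fold higher than a floor of 3 counts in the Sham T cells. NK cells had 26.4 CPM in AAA_14, 36.8 CPM in AAA_7 and 0 UMIs in Sham, at least 3.22-fold and 4.49-fold higher. B cells had 11.0 CPM in AAA_14, 39.9 CPM in AAA_7 and 1 UMI in Sham. These levels were set beside those of 7 phagocyte markers in the same cells. In AAA_7, T cells had Tgfbi at 3.04% of its phagocyte level (2.41 to 3.79) and the markers at a median of 3.46%. NK cells of AAA_7 had it at 2.79% with a marker median of 2.27%, and B cells at 3.02% with a marker median of 2.11%. These Tgfbi shares lay within the range of the markers. In AAA_14 the share was 2.01% in T cells (1.68 to 2.37), above the highest marker at 1.44%, where 1 cell held 48.5% of the T cell UMIs, and 2.75% in NK cells (1.70 to 4.21), above the highest marker at 1.84%, where 1 cell held 57.1% of the NK UMIs. In B cells it was 1.15%, within the marker range. In lymphocytes of AAA_7 and in B cells of AAA_14 the Tgfbi share could thus not be told apart from that of the phagocyte markers, and it is not read as expression by these cells. In T and NK cells of AAA_14 the share was above the highest marker but rested in large part on 1 cell of each class. It is not read as expression by these classes either. The part of phagocyte RNA was not tested.

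Pdgfb differed from this. It stood at 17.5% (13.3 to 22.6) of its phagocyte level in AAA_14 T cells and 29.9% (21.5 to 40.6) in AAA_7 T cells, and at 121% in AAA_14 NK cells and 130% in AAA_7 NK cells, all above the highest phagocyte marker. Tgfbi in neutrophils, at 41.2% of the phagocyte level in AAA_14 and 31.6% in AAA_7, was likewise above the highest marker, at 1.71% in AAA_14 and 8.12% in AAA_7. Igf1 in T cells was within the marker range, at 1.23% in AAA_14 and 2.91% in AAA_7.

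**Figure D5:**
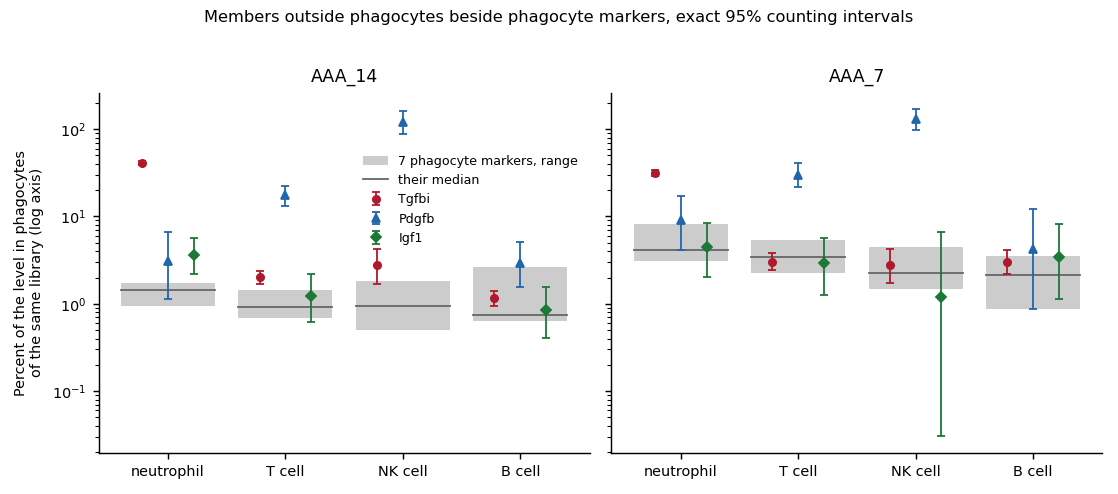
Level of Tgfbi, Pdgfb and Igf1 in neutrophils, T cells, NK cells and B cells as a percent of the level in phagocytes of the same library (vertical log axis), AAA_14 left and AAA_7 right; bars are exact 95% counting intervals, grey bands the range of 7 phagocyte markers and grey lines their median, and Igf1 is left out where it had 0 UMIs. Pdgfb in T and NK cells and Tgfbi in neutrophils lie above the bands, and Tgfbi in AAA_7 lymphocytes lies within them.

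By the 2-fold rule, 2 of 6 members tested were higher in T cells of AAA_14 than of Sham (Tgfbi and Pdgfb) and 0 lower, where 24.7% of 11677 genes were higher and 3.25% lower. In T cells of AAA_7 against Sham the same genes made 2 of 5 higher and 0 lower, where 26.8% of 10392 genes were higher and 3.78% lower. In NK cells, 1 of 5 members was higher in AAA_14 than in Sham (19.5% of 8097 genes higher, 3.58% lower) and 2 of 6 were higher in AAA_7 (20.3% of 7438 genes higher, 5.97% lower). In B cells, Tgfbi was higher in AAA_14 than in Sham, 1 of 6, and Igf1 was lower, with 10 UMIs in AAA_14 and 4 in Sham (−1.69, −3.39 to 0.54), 3 of the Sham UMIs in 1 cell, where 17.2% of 11397 genes were higher and 6.58% lower. In B cells of AAA_7, Tgfbi was 1 of 4 higher, where 16.2% of 8967 genes were higher and 6.04% lower. These counts are close to the shares over all genes or rest on few UMIs. Between AAA_14 and AAA_7, 3 of 6 members in T cells (Tgfbi, at −1.06 but 1.07 with a mitochondrial limit of 5%, Pdgfb and Igf1) were lower in AAA_14, where 5.82% of 11694 genes were lower and 4.26% higher. In B cells 3 of 6 were lower (Tgfbi, Pdgfb and Igf1), where 7.07% of 11344 genes were lower and 8.13% higher, and in NK cells 0 of 5 in either direction, where 4.47% of 8614 genes were lower and 6.8% higher. The markers of phagocytes in these lymphocytes were lower in AAA_14 too, with medians of 0.917% and 3.46% of the phagocyte level in T cells of AAA_14 and AAA_7, and 0.742% and 2.11% in B cells.

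In dendritic cells, 3 of 7 members tested were at least 2-fold lower in AAA_14 than in AAA_7 and 0 were higher, where 4.74% of 11656 genes were lower and 8.1% higher. The median log2 ratio was −0.64 over the members and 0.14 over all genes. Tgfbi had 199.5 CPM in AAA_14 and 426 CPM in AAA_7 (−1.09, −1.23 to −0.95), Pdgfb had 17.9 CPM in AAA_14 and 43.9 CPM in AAA_7 (−1.30, −1.75 to −0.83), and Igf1 had 31 UMIs in AAA_14 and 24 in AAA_7 (−1.86, −2.67 to −1.02). In the cluster led by Cd209a, a marker of conventional type 2 dendritic cells, Tgfbi had 291 CPM (271 to 312) in AAA_14 and 637 CPM (581 to 696) in AAA_7. In type 1 conventional dendritic-like cells the levels were closer, with 199 CPM in AAA_14 and 240.0 CPM in AAA_7 and a log2 ratio of −0.28 (−0.60 to 0.08). Igf1 in dendritic cells lay mainly in the mature cluster led by Fscn1 and Ccl22, with 29.5 CPM in AAA_14 and 92.9 CPM in AAA_7, where 1 cell held 44.0% of the UMIs in AAA_14 and 41.2% in AAA_7. Pdgfb had a log2 ratio of −1.77 (−2.37 to −1.17) in the Cd209a cluster. Its ratio was −0.66 (−1.66 to 0.62) in the type 1 cells and 0.11 (−1.18 to 1.95) in the mature cluster. Tgfb1, Tgfbr1 and Tgfbr2 in dendritic cells had log2 ratios of 0.02, −0.32 and 0.04, with intervals that include 0. Tgfbi in dendritic cells stood at 20.8% of its phagocyte level in AAA_14 and 32.3% in AAA_7, and Pdgfb at 37.5% in AAA_14 and 63.0% in AAA_7, above the highest of the 7 phagocyte markers, at 4.50% in AAA_14 and 8.41% in AAA_7. Igf1 stood at 3.65% (2.48 to 5.18) in AAA_14 and 11.9% (7.65 to 17.8) in AAA_7, with intervals that include the highest marker. The 10 macrophage markers summed to 844 CPM in dendritic cells of AAA_14 and 1598 CPM in those of AAA_7, the neutrophil markers to 859 CPM in AAA_14 and 1544 CPM in AAA_7, and the haemoglobin genes to 1285 CPM in AAA_14 and 3.48 CPM in AAA_7, where Hba-a1 and Hba-a2 were at 0. The median mitochondrial share was 4.62% in AAA_14 and 0.937% in AAA_7. The part of these in the dendritic cell ratios was not tested.

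Other genes of the same systems were counted from 6 lists of 58 genes. In phagocytes 36 had enough UMIs, of which 3 were past 2-fold higher in AAA_14 and 5 past 2-fold lower, against 7.78% higher and 3.91% lower over all genes, with a median log2 ratio of −0.07. For this and the classes below, a count near the share over all genes is not a result about the lists. The pathway genes were compared over classes and not within clusters, so their ratios may carry differences in the clusters that make up a class. The part of these was not tested. Thbs1, thrombospondin 1, a matrix protein that releases TGF-beta from its latent complex, had 218 CPM in AAA_14 and 1201 CPM in AAA_7 (−2.46, −2.53 to −2.40). It is among the genes that lead cluster 4, which held 86 phagocytes of AAA_14 and 556 of AAA_7. Tgfb3, another TGF-beta ligand, was lower in AAA_14 (−1.73, from 36 and 53 UMIs), as was Igf2r, the receptor that clears IGF-2 (−1.36, −1.70 to −1.02). Eng, endoglin, a co-receptor of TGF-beta family ligands, was higher, with 25.6 CPM in AAA_14 and 9.77 CPM in AAA_7 (1.38, 0.98 to 1.83), and Ltbp1, which tethers latent TGF-beta to the matrix, had 32 and 4 UMIs (1.67, 0.32 to 3.78). The activin receptors Acvr1b and Acvr2a and the IGF-1 receptor Igf1r did not separate in phagocytes, with log2 ratios of 0.09, −0.22 and 0.25 and intervals that include 0. Smad7, an inhibitor that TGF-beta itself induces, had 31.2 CPM in AAA_14 and 48.5 CPM in AAA_7 (−0.63, −0.86 to −0.41). The PDGF receptor genes Pdgfra and Pdgfrb and the activin inhibitor Fst had too few UMIs in phagocytes to be compared.

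In dendritic cells 0 of 32 tested pathway genes were higher and 4 lower in AAA_14 than in AAA_7, against 8.1% higher and 4.74% lower over all genes. Among them were Bambi, a decoy receptor, with 3.57 CPM in AAA_14 and 27.1 CPM in AAA_7 (−2.91), and Tgif1, a repressor of SMAD targets, with 39.0 CPM in AAA_14 and 130.2 CPM in AAA_7 (−1.74). Smad7 in dendritic cells was just inside 2-fold (−0.98, −1.22 to −0.74).

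In neutrophils, 2 of 27 pathway genes were higher and 9 lower in AAA_14 than in AAA_7, where 14.4% of all genes were higher and 10.8% lower. Lower were the SMAD co-repressors Skil (223 CPM in AAA_14, 626 CPM in AAA_7), Ski (41.5 and 104 CPM) and Tgif1 (258 and 572 CPM), and Thbs1 with 333 CPM in AAA_14 and 915 CPM in AAA_7. Also lower were Furin, a protease that cleaves the TGF-beta 1 precursor (77.2 CPM in AAA_14, 159 CPM in AAA_7), Igf1r (143 and 305 CPM), Igf2r (17.7 and 59.2 CPM) and the IGF binding proteins Igfbp4 and Igfbp6. The type I receptor Acvrl1 was higher (61.4 CPM in AAA_14, 25.8 CPM in AAA_7). Against Sham, Igfbp6 was higher, with 116 CPM in AAA_14, 252 CPM in AAA_7 and 7.48 CPM from 3 UMIs in Sham. Thbs1 was highest in Sham neutrophils, at 1461 CPM, and its log2 ratio to Sham was −2.14 (−2.27 to −1.99) in AAA_14. Irs2, an adaptor of the insulin and IGF-1 receptors, was lower than in Sham in both libraries, with 39.3 CPM in AAA_14, 23.0 CPM in AAA_7 and 105 CPM in Sham. Of the tested pathway genes, 2 of 26 were higher and 2 lower in AAA_14 than in Sham, against 12.4% and 6.38% of all genes. In AAA_7 against Sham 6 of 20 were higher and 2 lower, against 22.8% and 12% of all genes, so these counts were near the shares over all genes. Different clusters made up the neutrophils of each library: the Acod1 and Csf1 cluster held 209 cells of AAA_14, 686 of AAA_7 and 3 of Sham. The part of this in the neutrophil ratios of pathway genes was not tested.

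In T cells, 8 of 30 pathway genes were higher and 0 lower in AAA_14 than in Sham, against 24.7% and 3.25% of all genes. In AAA_7 against Sham 8 of 26 were higher and 1 lower, against 26.8% and 3.78% of all genes. Both counts were near the shares over all genes. Smad3, a SMAD that carries the TGF-beta signal, had 31.3 CPM in AAA_14, 36.6 CPM in AAA_7 and 10.1 CPM in Sham (1.61 and 1.84). Furin had 92.7 CPM in AAA_14, 116 CPM in AAA_7 and 24.2 CPM in Sham (1.92 and 2.25). Igf1r had 47.1 CPM in AAA_14, 41.1 CPM in AAA_7 and 17.8 CPM in Sham (1.39 and 1.20). Higher in AAA_14 were also Insr, Igfbp4, Igfbp7 and Acvrl1, and in AAA_7 Itgav, an integrin chain that activates TGF-beta, Nrros and Smurf1. Relative to the median gene, Insr (0.63), Igfbp4 (0.64) and Igf1r (0.91) in AAA_14 and Nrros (0.57), Igf1r (0.72) and Itgav (just under 1) in AAA_7 were inside 2-fold, while Smad3 stood at 1.12 in AAA_14 and 1.35 in AAA_7 and Furin at 1.44 in AAA_14 and 1.76 in AAA_7. Tgfbr3, a co-receptor, was lower in AAA_7 T cells than in Sham (−1.13, −1.99 to −0.37) and higher in AAA_14 than in AAA_7 (1.16, 0.50 to 1.96). Between AAA_14 and AAA_7 T cells 4 of 31 were higher and 4 lower, against 4.26% and 5.82% of all genes, with Lrrc32, which holds latent TGF-beta on the surface of regulatory T cells, lower in AAA_14 (−1.54, −2.34 to −0.71), as were Bambi and Tgif1, and Igfbp7 higher. Thbs1 had 3.40 CPM in AAA_14 T cells and 65.5 CPM in AAA_7 T cells, which was 1.56% (1.00 to 2.32) and 5.46% (4.56 to 6.48) of its phagocyte level, with intervals that include the highest phagocyte marker. It is thus not read as a difference in T cells, and the part of phagocyte RNA was not tested.

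In NK cells Smad3 (1.53, 0.69 to 2.59) and Furin (1.98, 0.65 to 4.07) were higher in AAA_14 than in Sham, and Irs2 was lower in AAA_14 (−1.32) and in AAA_7 (−1.52). Of the tested genes, 3 of 19 were higher and 2 lower in AAA_14 than in Sham, against 19.5% and 3.58% of all genes, and 7 of 20 higher and 1 lower in AAA_7, against 20.3% and 5.97%. Nrros, which anchors latent TGF-beta on myeloid cells, was lower in AAA_14 NK cells than in those of AAA_7 (−1.04, −1.84 to −0.29), 1 of 3 lower and 0 higher of 21, against 4.47% lower and 6.8% higher over all genes. In B cells Smad7 had 114 CPM in AAA_14, 127 CPM in AAA_7 and 273 CPM in Sham, with log2 ratios to Sham of −1.26 (−1.44 to −1.08) and −1.10 (−1.40 to −0.80). Irs2 in B cells had 143 CPM in AAA_14, 302 CPM in AAA_7 and 404 CPM in Sham, and Bambi was lower in AAA_14 than in either. Pmepa1 and Smurf1 were higher in AAA_14 than in Sham, at 0.81 and 1.23 relative to the median gene, and Furin and Igf2r were higher in AAA_7. Thbs1, with 1 UMI in Sham, was also past 2-fold higher in AAA_14 (but −0.42 with a mitochondrial limit of 20%) and in AAA_7. It stood at 2.43% of its phagocyte level in AAA_14 B cells, within the range of the phagocyte markers, and at 4.13% (3.08 to 5.43) in AAA_7 B cells, with an interval that includes the highest marker at 3.55%. It is thus not read as a difference in B cells. In all, 3 of 29 were higher and 4 lower in AAA_14 than in Sham, against 17.2% and 6.58% of all genes, and 5 of 20 higher and 1 lower in AAA_7, against 16.2% and 6.04%. Between AAA_14 and AAA_7, 0 of 29 were higher and 8 lower in AAA_14, Furin, Igfbp4, Igf2r and Thbs1 among them, against 8.13% higher and 7.07% lower over all genes. Igfbp4 in AAA_14 B cells was within the marker range, at 2.08% of its phagocyte level, and the part of phagocyte RNA was not tested. The Mef2b and Rgs13 cluster held 206 B cells of AAA_14, 8 of AAA_7 and 7 of Sham. The part of this in the B cell ratios was not tested.

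The genes most like each member were sought over the same 29 clusters among 12123 genes with at least 100 UMIs, by the Pearson correlation of log2(CPM + 10), as a description with no test. Closest to Pdgfc were C6 (0.98), a complement component, Pigz (0.97) and Scamp5 (0.97). Closest to Igf1 were Pmp22 (0.97), Cp (0.95), which encodes ceruloplasmin, and Calml4 (0.93). Tgfbi was closest to Ifi204 (0.93), Ifitm2 (0.90) and Lrrc25 (0.90), and Pdgfa to Lpl (0.88), lipoprotein lipase, which also leads cluster 4, Fblim1 (0.87) and Slc27a1 (0.85). Pdgfb was closest to Pald1 (0.86), Inhba to F5 (0.82), coagulation factor V, Tgfb1 to Cacul1 (0.83), Tgfbr2 to Rabgap1 (0.79) and Tgfbr1 to Zfp691 (0.77).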

How the data were processed

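CD45-enriched cells of infrarenal aortas were sequenced with a 10x 3' v2 kit, per the labels' protocols. The deposited matrices hold UMI counts for each gene in each barcode. Per the file headers, the authors ran Cell Ranger 6.1.2. Genome build mm10 and Seurat are named in the submitters' processing notes. Counts were summed per library and class, with barcodes under 200 genes or over 10% mitochondrial UMIs left out. Cells were clustered with scanpy 1.11.5 and leidenalg 0.10.2 (2000 variable genes, 30 components, 15 neighbours, resolution 1) without the members and pathway genes, and named from marker UMIs. Doublets were kept, since Scrublet's automatic threshold marked almost none; removing the highest scores was an alternative. Ratios are log2 of CPM with 0.5 counts added; intervals are exact Poisson, Clopper-Pearson or conditional binomial (scipy 1.17.1). A gene was compared where both libraries summed to 10 UMIs or more, and a count of 0 was taken as 3 to decide whether it was past 2-fold. edgeR 4.0.16 gave TMM factors for 1 alternative and no test. UMIs limit amplification error, but intervals and floors cover counting error only. The steps were tested on simulated counts.

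The members, gene lists and rules were chosen with earlier results of these data known. All members are named; a cluster is named for a member with at least 10 UMIs there or where its low level is contrasted. Pathway genes are named at 30 UMIs or more in the higher library and a 2-fold ratio whose interval leaves out equality, with the members' receptors, Fst and Smad7 named whatever their values.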

Additional observations from a re-analysis of the deposited data

Results flagged for a closer look

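The members were also found in barcodes that the filters left out. Summed over the 9 members, these barcodes held 446.47 CPM in AAA_14 (7249 UMIs) and 992.974 CPM in AAA_7 (304 UMIs), against 245.6 CPM in Sham (1889 UMIs). They are pointed out because the level in data outside the comparisons was above that of the control library. The left-out barcodes made up 47.7% of AAA_14, 7.64% of AAA_7 and 67.4% of Sham, and their cell types were not determined.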

How the results depend on the processing

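Of 963 recomputed values for 91 single ratios past 2-fold, 843 moved by less than the counting interval, 118 moved by more and 2 changed sign. Tgfbi in T cells, AAA_14 over AAA_7, was 1.07 at a mitochondrial limit of 5%, and Thbs1 in B cells, AAA_14 over Sham, was −0.42 at a limit of 20%; the cause was not tested. As reported, 1 member was past 2-fold lower in phagocytes, 5 were higher and 1 lower in AAA_14 than in Sham over 4 classes, 8 higher and 0 lower in AAA_7 than in Sham, and 0 higher and 10 lower in AAA_14 than in AAA_7 over 5 other classes. Outside phagocytes 4 to 7 members were tested per class. Over all genes, by class, 12.4% to 24.7% were higher and 3.25% to 6.58% lower in AAA_14 than in Sham. In AAA_7 against Sham 16.2% to 26.8% were higher and 3.78% to 12% lower. Between AAA_14 and AAA_7 outside phagocytes 4.26% to 14.4% were higher and 4.47% to 10.8% lower. These shares were not recomputed for the alternatives. The counts include Tgfbi in lymphocytes of AAA_7 and AAA_14, not read as expression by them. At the 5% limit, members past 2-fold lower in phagocytes numbered 2; against Sham, where too few T, B and NK cells were left, 1 was higher and 0 lower in AAA_14 and 3 higher in AAA_7, and between AAA_14 and AAA_7 outside phagocytes 1 was higher. With thinned cells the counts were 2 lower in phagocytes, 1 higher in AAA_14 than in Sham, 1 lower in AAA_7 than in Sham, and 4 lower in AAA_14 than in AAA_7 outside phagocytes. For members lower in AAA_14 than in Sham, classing each cell by its own markers gave 2, leaving out the top cell 0, and a minimum of 1 UMI 3; that minimum gave 20 lower in AAA_14 than in AAA_7 outside phagocytes. No paired analysis was possible because each group had 1 library, and no replicate could be left out. Sham is limited most by its cell number, with 11 phagocytes.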
